A study of Homo sapiens with 30 samples.

Results

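A set of 9 human genes, known from other work to be mis-spliced at cryptic 3′ splice sites when SF3B1 is mutated or SUGP1 is lost, was followed at the level of whole-gene counts. They are PPOX, TMEM14C, COASY, MAP3K7, DVL2, BRD9, DPH5, TTI1 and ENOSF1. They were chosen by name for this published property and make up 9 of the 61487 genes in the table. All 9 passed the filter on low counts, as did 31495 genes in all. The libraries came from eHAP FNLS, an established human cell line: eHAP is a haploid relative of HAP1, and FNLS is a base editor that turns C into T and is expressed in these cells.

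The 5 genotypes were SUGP1 E554K, SUGP1 G603N, PHF5A 2xTL (an insertion in PHF5A), SF3B1 T1080I and a control with a non-targeting guide RNA. Each was treated for 3 h with 2 nM pladienolide B (PB), a natural product that blocks the SF3b complex of the spliceosome, or with the solvent DMSO. There were 3 libraries for each of the 10 combinations, 30 in all, of polyadenylated RNA. Every cell, control included, carries the editor. The 3 libraries of a mutant genotype are 3 separate monoclonal lines, whereas the 3 control libraries are replicate cultures of 1 line, so the spread in the control is between cultures and that in a mutant is between clones.

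SF3b sits at the branch point and helps to choose the 3′ splice site, the AG at which an intron ends. SUGP1 is a G-patch protein that joins SF3B1 at this step. Cancer mutations of SF3B1 weaken its contact with SUGP1, and the spliceosome then uses AGs a short way upstream of the normal ones. Such an upstream site adds a few intron bases to the mRNA. Where these shift the reading frame or bring in a stop codon, the transcript is open to nonsense-mediated decay (NMD), and the gene's level can fall. Gene counts hold only that level: they show neither which site was used nor which bases were edited, and in bulk RNA fewer cells making a transcript and less transcript per cell cannot be told apart.

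Annotated pairs of nearby 3′ splice sites are shown first. They were found by their spacing alone and were not matched to the published cryptic sites of these genes. In GENCODE release 29 (hg38), 4 of the 9 genes had 5 pairs of annotated 3′ splice sites that share a preceding exon and lie 10 to 30 bases apart. All 5 are printed below from the spliced transcripts. The 8 lower-case bases on the left are the end of the preceding exon, the capitals are the bases added when the upstream site is used, and the 8 lower-case bases on the right follow the downstream site.
TMEM14C: tgagaccgCTTGTTTTCTGCAGgtgcaggc
DVL2, 28 bases apart: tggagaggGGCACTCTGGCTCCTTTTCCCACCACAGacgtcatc
DVL2, 18 bases apart: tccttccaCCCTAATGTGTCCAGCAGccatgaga
BRD9: ctctctggTTTCTTTCAGggcctgcc
ENOSF1: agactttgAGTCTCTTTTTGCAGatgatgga
In all of them the added bases end in AG, the last bases before the downstream site. The capitals lie at chr6:10724556-10724569 on the plus strand in TMEM14C (14 bases, outside the annotated coding sequence) and at chr17:7229448-7229475 (28 bases) and chr17:7230138-7230155 (18 bases, within coding sequence) on the minus strand in DVL2. They lie at chr5:869395-869404 on the minus strand in BRD9 (10 bases, within coding sequence) and at chr18:683381-683395 on the minus strand in ENOSF1 (15 bases). The BRD9 pair was annotated only in transcripts classed as NMD targets, 3 with the upstream and 3 with the downstream site, and 9 of the 19 annotated BRD9 transcripts were of that class. In ENOSF1, 1 transcript used the upstream site and 14 the downstream one. The DVL2 pair 28 bases apart had 1 transcript with the upstream and 4 with the downstream site, while the pair 18 bases apart had 7 with the upstream and 1 with the downstream site. PPOX, COASY, MAP3K7, DPH5 and TTI1 had no annotated pair at this spacing, which says only that none is in this annotation. Whether any of these sites was used here was not tested.

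Library totals ran between 31600000 and 75000000 counts, and mitochondrial genes took 10.1% to 17.9% of them. The smallest count of any of the 9 genes in a library was 267, for PPOX. Of the edited genes, SUGP1 averaged 61.6 ± 4.54 CPM (counts scaled to a library of 1e+06) in SUGP1 E554K, 89.1 ± 5.63 CPM in SUGP1 G603N and 47.7 ± 12.5 CPM in control (DMSO, SD, n = 3 each), which says nothing about the edits themselves. Every one of 8 haematopoietic markers averaged under 1 CPM in this line of leukaemic origin. A mean of at least 1 CPM was found for 3 of 5 mesenchymal, 2 of 4 epithelial and 3 of 4 neural markers. Within these lists SOX2 averaged 891 CPM, VIM 281 CPM and KRT18 36.7 CPM, but GFAP 0.375, PDGFRB 0.253 and EPCAM 0.383 CPM. No tissue type is read from them.

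The 9 genes spanned more than an order of magnitude once scaled by length. TMEM14C, a mitochondrial carrier for a haem precursor, was highest at 31.9 ± 4.60 CPM per kb over the 30 libraries (SD), and COASY, which makes coenzyme A, followed at 19.1 ± 2.37 CPM per kb. TTI1 (10.4 ± 1.90), DVL2 (9.47 ± 1.51) and MAP3K7 (8.92 ± 1.12 CPM per kb) each lay within the SD of the next of them, and BRD9 (7.52 ± 1.28 CPM per kb) stood lower. DPH5 at 6.00 ± 1.29 and ENOSF1 at 5.69 ± 2.11 CPM per kb lay within each other's SD. These SDs span genotypes and treatments and are not errors of the means. PPOX was lowest at 2.36 ± 0.444 CPM per kb, a level at or above that of 65.9% of the tested genes.

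**Figure D1:**
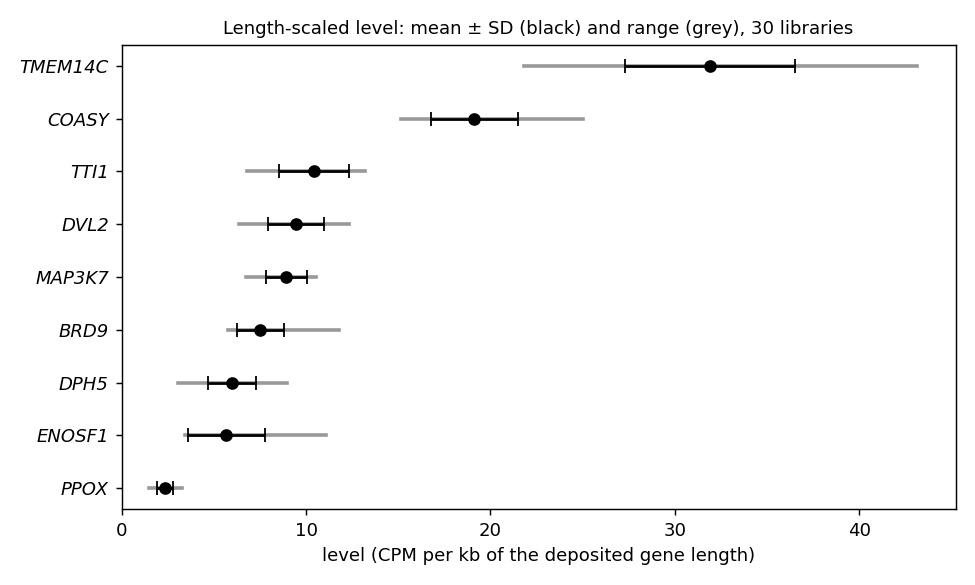
Level of each gene in CPM per kb of the gene length in the deposited table (x axis), genes ordered by their mean. Black points and bars are the mean ± SD and grey lines the lowest and highest of 30 libraries; TMEM14C at 31.9 and PPOX at 2.36 CPM per kb mark the ends.

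PB and DMSO libraries were paired by line in the mutants and by replicate number in the control, which is 1 line. With this pairing edgeR called PPOX lower with PB in both SUGP1 mutants and in control, and DVL2 and TTI1 in SUGP1 E554K. It also called DPH5 lower in SUGP1 G603N and control, and ENOSF1 in SUGP1 E554K and control. Without the pairing edgeR called PPOX in control and DVL2 and TTI1 in SUGP1 E554K. BRD9 was the one gene of the 9 with a positive estimate in all 3 of these genotypes that exceeded its standard error each time. The SUGP1 mutants and the control comprise 9 lines or cultures: PPOX, DVL2, DPH5 and ENOSF1 were lower with PB in all 9, MAP3K7 in 8, TTI1 in 7, TMEM14C in 4, COASY in 3 and BRD9 in 2. In the 6 lines of PHF5A 2xTL or SF3B1 T1080I, the SF3b mutants, the same counts were 5 for PPOX, 3 for DVL2, 4 each for DPH5, ENOSF1, MAP3K7, TTI1 and BRD9, 3 for TMEM14C and 6 for COASY. All 3 PHF5A 2xTL lines were lower for PPOX, DPH5, TTI1, COASY and ENOSF1, and all 3 SF3B1 T1080I lines for COASY alone. The edgeR estimate was negative for all 9 genes in PHF5A 2xTL and for 4 in SF3B1 T1080I, with no call. Any fall counts as lower, however small, such as a log2 change of -0.0046 for DVL2 in control culture 1 or -0.045 for ENOSF1 in SUGP1 G603N line 3. How many of all tested genes were lower in all 9 was not counted, so these counts have no background to be read against.

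Tested one by one with edgeR, few of these differences passed. Calls below are at an edgeR adjusted p under 0.05, adjusted over 31495 genes. In SUGP1 E554K, 2 of the 9 were called, both lower, where 4.32% of all tested genes were called in either direction. In control, 1 of 9 was called, lower, where 4.3% of all were. In SUGP1 G603N none was called, where 4.08% of all were, and DESeq2 called 0. An unadjusted edgeR p under 0.05 was found for 3 of the 9 there, where 16.3% of all genes had one. It was found for 4 in SUGP1 E554K (16.1% of all genes) and 4 in control (13.8%). Standard errors of the 9 lay between 0.11 (TTI1) and 0.37 (ENOSF1) in these 3 genotypes. The median over all tested genes was 0.48 to 0.49, and genes with larger errors pass less readily. The shares of all genes given here and below thus do not come from genes of like precision, and no excess is read from them. With PB and DMSO libraries paired by line, or by replicate number in control (a block in the same model), the called genes numbered 4 in SUGP1 E554K, 2 in SUGP1 G603N and 3 in control, all lower. The share of all genes called was then 11.3% in SUGP1 E554K, 9.25% in SUGP1 G603N and 9.34% in control. In PHF5A 2xTL and in SF3B1 T1080I none of the 9 was called by edgeR, with or without the block, or by DESeq2, and none had an unadjusted p under 0.05. Of all genes, 1.29% and 0.883% had one without the block, in that order. There 0.00318% of all genes were called in each without the block, and 0.0159% in SF3B1 T1080I with it. These shares of all genes are also the background for the calls with PB in the other gene lists below. The median log2 fold change of the 9 genes was -0.29 in SUGP1 E554K, -0.17 in SUGP1 G603N, -0.11 in PHF5A 2xTL, 0.01 in SF3B1 T1080I and -0.30 in control, beside medians of -0.01 to 0.01 over all tested genes.

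**Figure D2:**
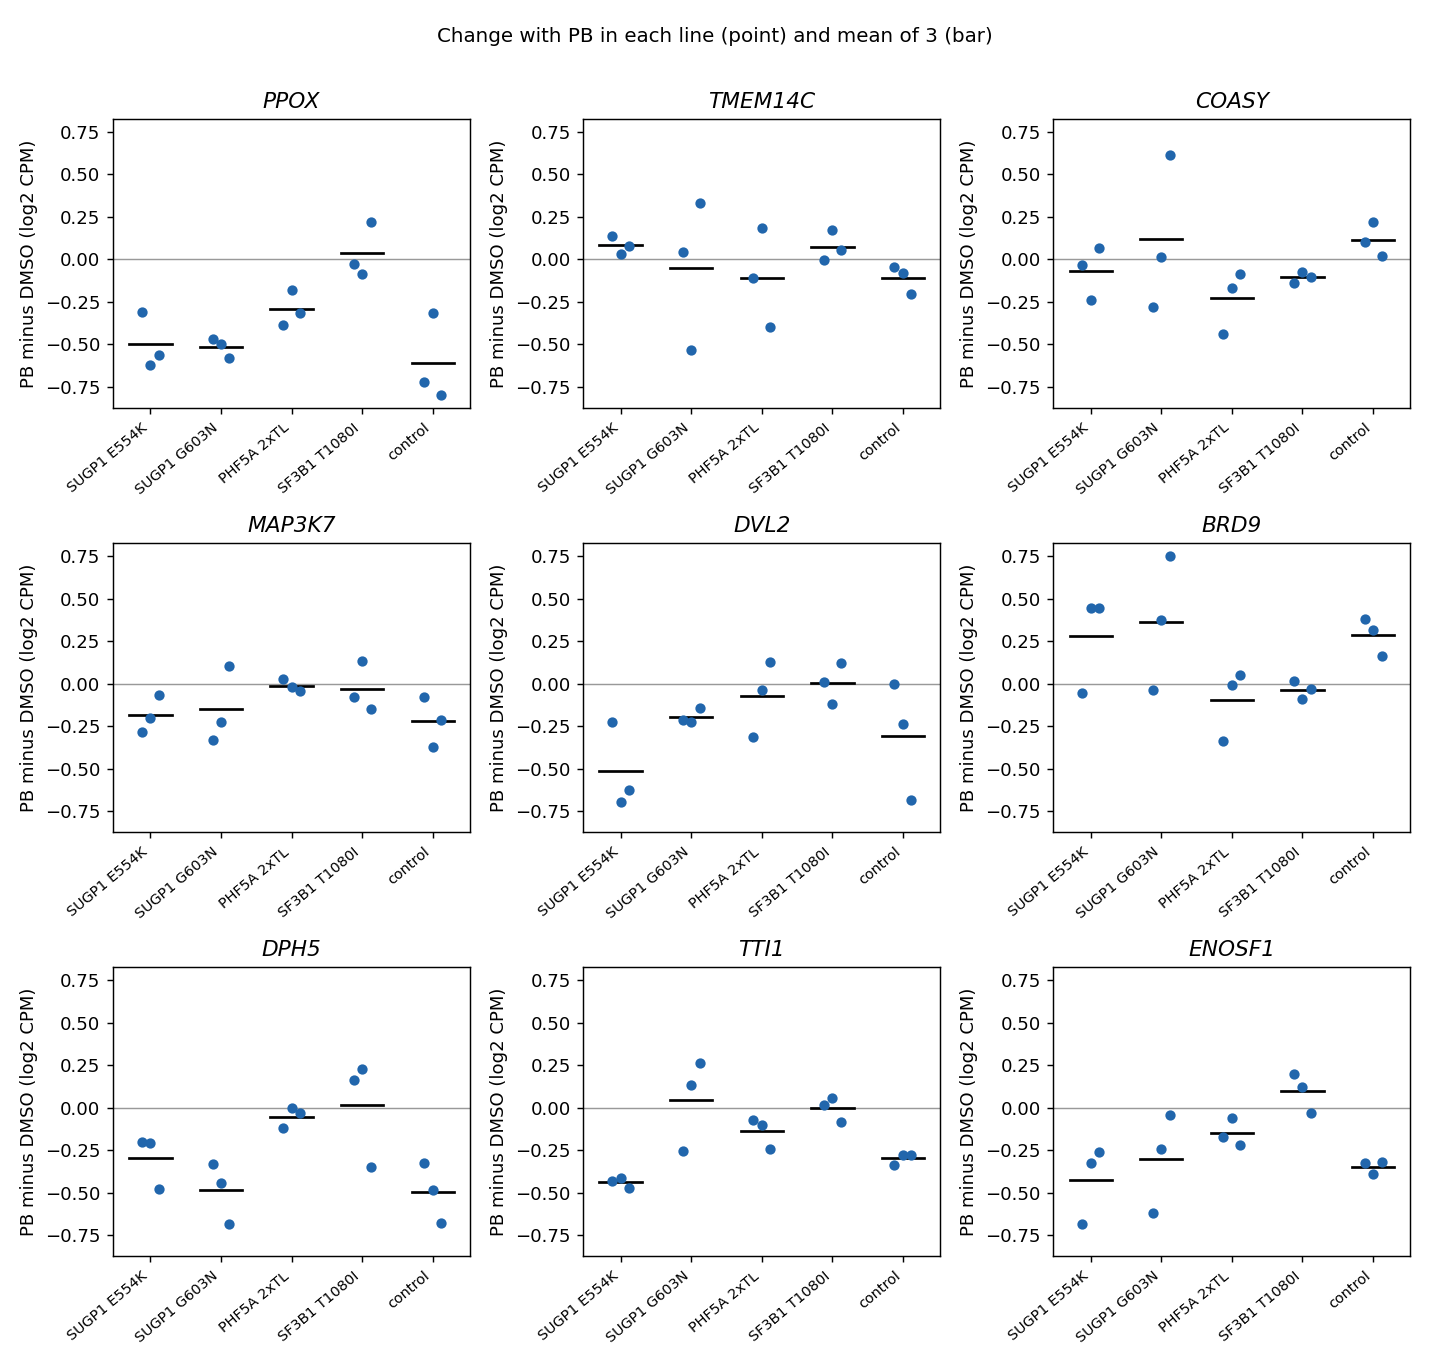
Log2 CPM with PB minus log2 CPM with DMSO (y axis) for each line or control culture (points) and the mean of 3 (bars), by genotype, in 1 panel per gene. PPOX, DVL2, DPH5 and ENOSF1 lie below 0 in all 9 SUGP1 and control pairs, and BRD9 lies above 0 in 7 of them.

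PPOX is protoporphyrinogen oxidase, the enzyme of the penultimate step of haem synthesis, and its mis-spliced form is best known from SF3B1-mutant myelodysplastic syndrome. It stood at 7.16, 9.81 and 8.87 CPM in the control PB cultures, against 11.8, 12.2 and 15.4 CPM in the control DMSO cultures. The 3 PB values all lay below the 3 DMSO values. How many of all tested genes had ranges apart was not counted, for this or any later comparison. The log2 fold change was -0.61 ± 0.17 (SE), edgeR adjusted p = 0.0384, and 0.00593 with the block. Without the block, leaving out any 1 of these 6 libraries ended the call, with adjusted p from 0.0510 to 0.305.

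In both SUGP1 mutants edgeR called PPOX lower with the block and not without it. SUGP1 E554K had 8.94, 8.30 and 9.81 CPM with PB, against 11.1, 12.8 and 14.5 CPM with DMSO, a log2 fold change of -0.51 ± 0.17 (edgeR adjusted p = 0.0969, 0.0233 with the block and 0.0498 by DESeq2). SUGP1 G603N had 9.46, 8.12 and 10.4 CPM with PB, against 13.1, 11.5 and 15.5 CPM with DMSO, a log2 fold change of -0.52 ± 0.17 (edgeR adjusted p = 0.0920, and 0.0219 with the block). In each mutant the PB and DMSO ranges were apart, and each SUGP1 line fell by between 0.31 and 0.62 on the log2 scale. Without SUGP1 E554K line 2 and 2 other lines described with ENOSF1 below, the block value in SUGP1 E554K was adjusted p = 0.292 and that in SUGP1 G603N 0.0488.

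In the SF3b mutants PPOX was not called. Its PB and DMSO ranges were nevertheless apart in PHF5A 2xTL too, where all 3 lines fell, by 0.18 to 0.39 on the log2 scale. PHF5A 2xTL had 9.62, 10.9 and 10.2 CPM with PB, against 12.6, 12.4 and 12.7 CPM with DMSO (log2 fold change -0.29 ± 0.17, edgeR adjusted p = 1). SF3B1 T1080I had 10.2, 10.2 and 14.0 CPM with PB, against 10.4, 10.8 and 12.0 CPM with DMSO (0.05 ± 0.17, edgeR adjusted p = 1), so that its ranges overlapped. Set against each other, the mean PB response of the SUGP1 mutants minus that of the SF3b mutants was -0.39 for PPOX (±2 SE -0.74 to -0.05), edgeR adjusted p = 0.339. PPOX shares 6659 bases with B4GALT3 on the opposite strand, whose PB estimates were 0.01 to 0.11 in the 5 genotypes with no call. No source used here states whether strand was used in counting, so reads of overlapping genes may have been divided between them.

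The other haem gene, TMEM14C, was not called in any contrast. Its group means ran between 32.2 ± 4.43 CPM in PHF5A 2xTL PB and 48.0 ± 7.79 CPM in SUGP1 G603N DMSO. Under DMSO it stood at 31.1, 32.8 and 40.3 CPM in PHF5A 2xTL, against 45.9, 43.2 and 44.2 CPM in control, with no overlap, a log2 fold change of -0.36 ± 0.13 and an edgeR adjusted p of 0.958 (unadjusted 0.0103). Its PB estimates lay between -0.11 and 0.08 in the 5 genotypes. Of 10 other haem synthesis genes, all tested, 1 was called: ALAD, which joins 2 molecules of aminolevulinate, fell in control to 14.2 ± 2.05 CPM with PB, against 20.9 ± 4.79 CPM with DMSO (-0.56 ± 0.16, edgeR adjusted p = 0.0367).

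COASY, the bifunctional enzyme of the last steps of coenzyme A synthesis, was the steadiest of the 9 between groups: its group means ran between 68.5 ± 3.25 CPM in SF3B1 T1080I PB and 85.9 ± 13.0 CPM in SUGP1 G603N PB, a ratio of 1.25. It was not called anywhere. PHF5A 2xTL gave 61.1, 79.9 and 79.7 CPM with PB, against 82.7, 89.6 and 84.6 CPM with DMSO (-0.22 ± 0.14), while control gave 74.3, 78.8 and 75.2 CPM with PB, against 69.2, 67.6 and 74.2 CPM with DMSO (0.11 ± 0.14). Neither pair of ranges overlapped, and they lay in opposite order. In control they were barely apart, with a lowest PB value of 74.30 and a highest DMSO value of 74.19 CPM. Of 6 other coenzyme A genes PANK3, a pantothenate kinase, was called, lower in control PB at 101 ± 8.64 CPM, against 161 ± 35.1 CPM with DMSO (-0.67 ± 0.19, edgeR adjusted p = 0.0444). With the block 2 of the 6 were called in each of these 3 genotypes, all lower: PANK3 in SUGP1 E554K (edgeR adjusted p = 0.00110), SUGP1 G603N (0.000589) and control (0.000142), PPCDC, the decarboxylase of the pathway, in SUGP1 E554K (0.00200) and control (0.000354), and PPCS, which joins cysteine to phosphopantothenate, in SUGP1 G603N (0.0487).

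**Figure D3:**
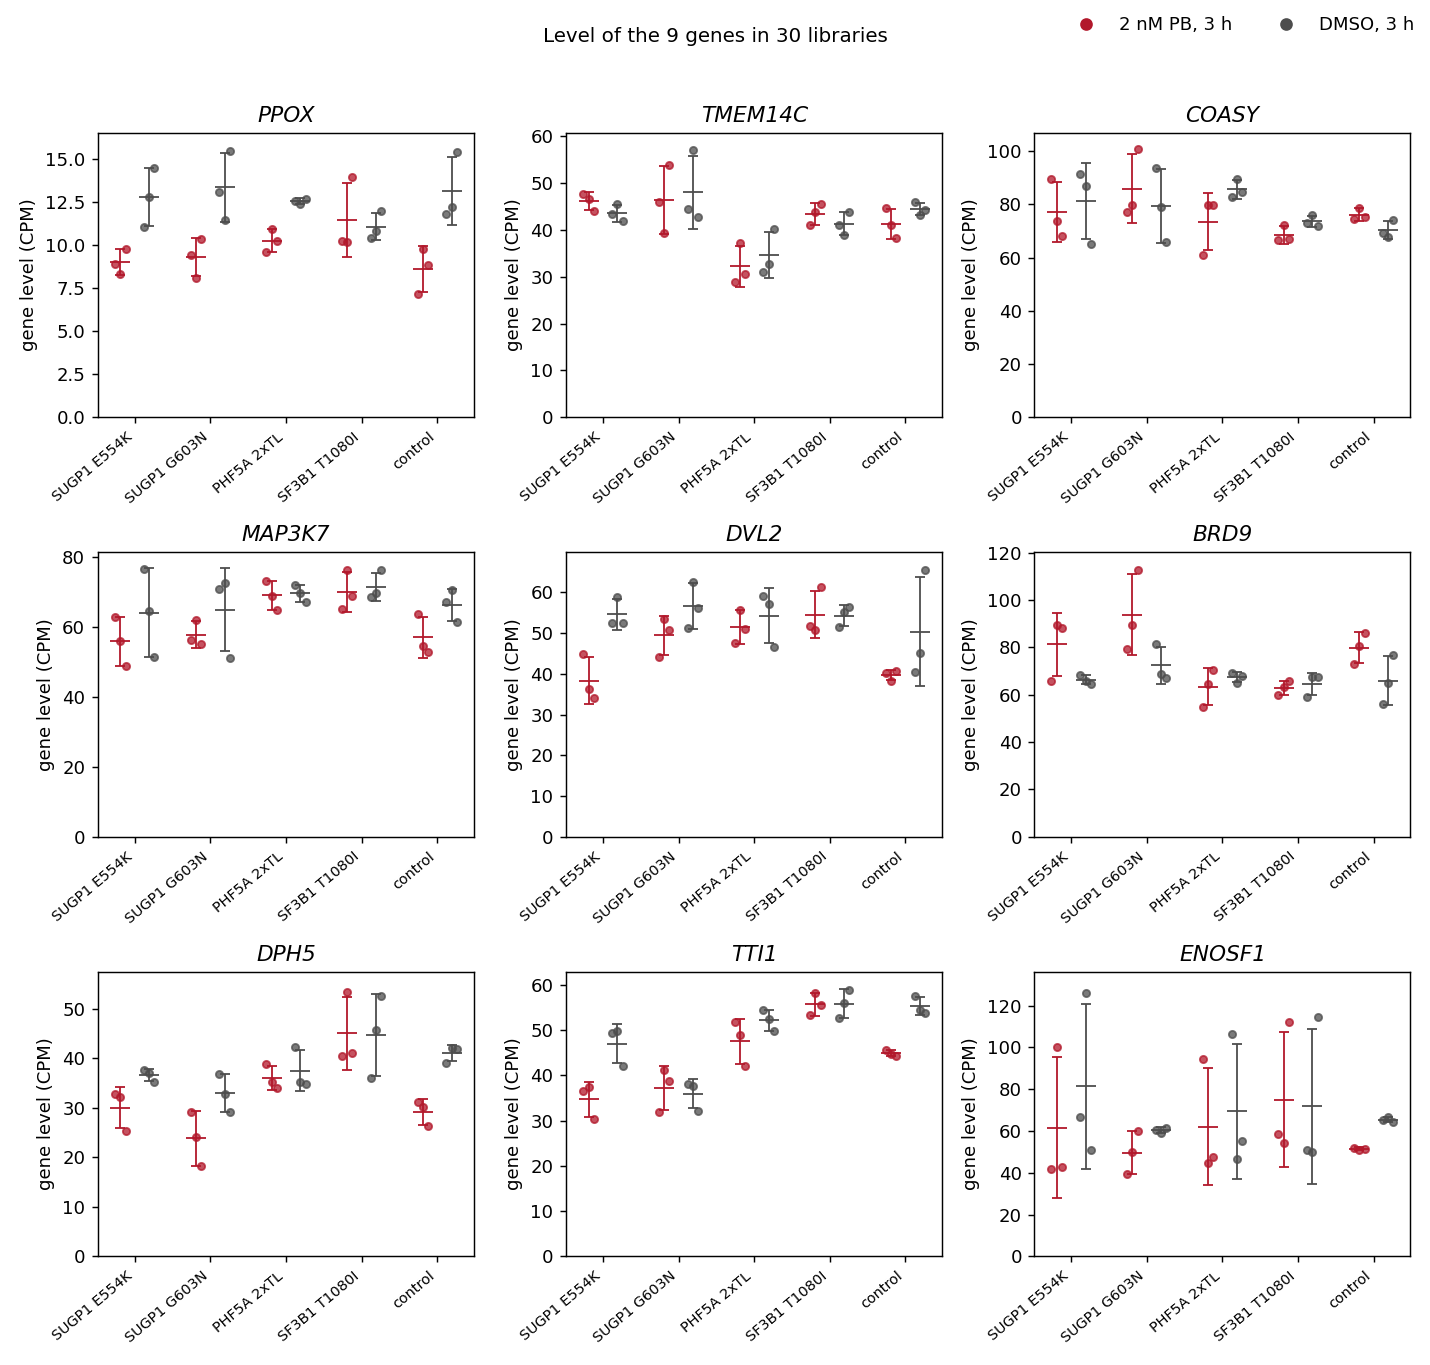
CPM of each gene (y axis, from 0) in all 30 libraries by genotype, PB (red) left of DMSO (grey). Points are libraries and bars mean ± SD of 3. PPOX is below its DMSO values in every PB library of both SUGP1 mutants, of PHF5A 2xTL and of the control. TTI1 is as low with DMSO as with PB in SUGP1 G603N.

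MAP3K7 encodes the kinase TAK1, which passes signals of TGF-β, Toll-like and cytokine receptors to NF-κB and the stress kinases, and its cryptic splice form is a known NMD target in SF3B1-mutant leukaemia. It was not called in any contrast. Its group means ran between 56.0 ± 6.97 CPM in SUGP1 E554K PB and 71.6 ± 4.09 CPM in SF3B1 T1080I DMSO. The PB estimates were -0.20 ± 0.14 in SUGP1 E554K, -0.17 ± 0.14 in SUGP1 G603N, -0.01 ± 0.14 in PHF5A 2xTL, -0.03 ± 0.14 in SF3B1 T1080I and -0.22 ± 0.14 in control. Its activating partner TAB1, 1 of 6 TAK1 partners tested, was called lower with PB in 3 genotypes, with log2 fold changes of -0.70 ± 0.12 in SUGP1 E554K (edgeR adjusted p = 0.000614), -0.65 ± 0.12 in SUGP1 G603N (0.00124) and -0.70 ± 0.12 in control (0.000470). The TAB1 response of the SUGP1 mutants minus that of the SF3b mutants was -0.63 ± 0.12 (edgeR adjusted p = 0.00319). With the block TAB3, an adaptor of the same kinase, was called lower in SUGP1 E554K (edgeR adjusted p = 0.0141), SUGP1 G603N (0.00468) and control (0.0141) too.

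DVL2, a Dishevelled protein that relays Wnt signals from Frizzled receptors, fell with PB in SUGP1 E554K. It stood at 44.8, 36.4 and 34.0 CPM with PB, against 52.5, 58.9 and 52.5 CPM with DMSO. No PB value reached the lowest DMSO value, and lines 2 and 3 fell by 0.70 and 0.63 on the log2 scale, line 1 by 0.23. The log2 fold change was -0.51 ± 0.15 (edgeR adjusted p = 0.0419, and 0.00322 with the block). The call was lost without any 1 of 4 of the 6 libraries (DMSO replicates 1 and 2, PB replicates 2 and 3), at an adjusted p of up to 0.206.

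The DVL2 estimates elsewhere were -0.20 ± 0.15 in SUGP1 G603N, -0.08 ± 0.15 in PHF5A 2xTL, 0.01 ± 0.14 in SF3B1 T1080I and -0.34 ± 0.15 in control, none called. Control DVL2 was 40.2, 38.3 and 40.7 CPM with PB, against 40.4, 45.1 and 65.5 CPM with DMSO, so that the third DMSO culture set most of that difference: without it the estimate was the smallest of the alternatives at -0.11. The difference in response between SUGP1 E554K and control was -0.17, edgeR adjusted p = 1.00. Of 5 Dishevelled paralogues and partners, AXIN1, a scaffold that holds β-catenin for degradation, was called lower with PB in control (-0.53 ± 0.13, edgeR adjusted p = 0.0164), and no other was called in the fit without the block. With the block AXIN1 was also called lower in SUGP1 E554K (edgeR adjusted p = 0.0308) and the paralogue DVL3 in control (0.0257).

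BRD9, a bromodomain subunit of the non-canonical BAF chromatin remodeller, is known for a poison exon included in SF3B1-mutant tumours. With PB it stood higher than with DMSO on average in both SUGP1 mutants and in control, without a call. SUGP1 E554K had 66.0, 89.5 and 88.2 CPM with PB, against 68.5, 65.8 and 64.7 CPM with DMSO (0.29 ± 0.14, edgeR adjusted p = 0.280). SUGP1 G603N had 79.4, 89.4 and 113 CPM with PB, against 81.4, 68.9 and 67.1 CPM with DMSO (0.37 ± 0.14, edgeR adjusted p = 0.137). In both, line 1 was slightly lower with PB and lines 2 and 3 were higher, so the ranges overlapped.

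In control BRD9 was 73.0, 80.6 and 86.1 CPM with PB, against 56.0, 64.9 and 76.9 CPM with DMSO (0.28 ± 0.14, edgeR adjusted p = 0.370). PHF5A 2xTL had 55.0, 64.7 and 70.3 CPM with PB, against 69.4, 65.0 and 67.8 CPM with DMSO, and SF3B1 T1080I 59.7, 63.2 and 65.8 CPM with PB, against 59.1, 67.3 and 67.3 CPM with DMSO. The estimates there were -0.09 ± 0.14 and -0.04 ± 0.14. The BRD9 response of the SUGP1 mutants exceeded that of the SF3b mutants by 0.40 (±2 SE 0.12 to 0.67), edgeR adjusted p = 0.160, and 0.0485 with the block; with the block and without 3 lines described below the adjusted p was 0.451. In this contrast 0 of 9 genes were called without the block and by DESeq2, where 1.87% of all genes were, and 1 with the block, where 5.95% were. Without the block 4 of the 9 had an unadjusted p under 0.05, beside 11.8% of all genes.

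Among 6 other genes of BAF complexes, a pair was called with PB. BICRAL, which with its paralogue BICRA defines this form of the complex, fell with PB, with log2 fold changes of -0.86 ± 0.18 in SUGP1 E554K (edgeR adjusted p = 0.00420), -0.75 ± 0.18 in SUGP1 G603N (0.0137) and -0.996 ± 0.181 in control (0.00105). Its response in the SUGP1 mutants minus that in the SF3b mutants was -0.83 ± 0.18 (edgeR adjusted p = 0.0106). BICRA rose in SUGP1 G603N, to 50.3 ± 9.66 CPM with PB, against 32.6 ± 2.83 CPM with DMSO (0.63 ± 0.15, edgeR adjusted p = 0.0146), and with the block it was called higher in SUGP1 E554K too (0.44 ± 0.15, edgeR adjusted p = 0.103, and 0.0101 with the block). The remaining 4 of these 6 genes (SMARCD1, SMARCA4, SMARCC1 and BRD7) were not called with PB in any genotype. BRD9 overlaps ZDHHC11 by 696 bases on the same strand, where the PB estimates were -0.22 to -1.04 and thus opposite in sign to those of BRD9 in the SUGP1 mutants and control. ZDHHC11 was not called without the block and was called lower with it in SUGP1 E554K (edgeR adjusted p = 0.000456), SUGP1 G603N (0.000706) and control (7.14e-05); its part in the BRD9 values was not tested.

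DPH5, a methyltransferase in the making of diphthamide, the modified histidine of elongation factor EEF2, was lower with PB in the SUGP1 mutants and control. SUGP1 G603N had 29.2, 24.1 and 18.2 CPM with PB, against 36.8, 32.9 and 29.3 CPM with DMSO (-0.47 ± 0.16, edgeR adjusted p = 0.101, and 0.00594 with the block). Control had 31.2, 30.1 and 26.3 CPM with PB, against 39.2, 42.1 and 42.0 CPM with DMSO (-0.49 ± 0.16, edgeR adjusted p = 0.0778, 0.00431 with the block and 0.0419 by DESeq2). In both the PB values lay below the DMSO values, though barely in SUGP1 G603N, where the highest PB value was 29.24 and the lowest DMSO value 29.27 CPM.

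In SUGP1 E554K DPH5 had 32.8, 32.1 and 25.3 CPM with PB, against 37.7, 37.1 and 35.2 CPM with DMSO (-0.29 ± 0.16, edgeR adjusted p = 0.392, and 0.105 with the block). The estimates in PHF5A 2xTL and SF3B1 T1080I were -0.06 ± 0.16 and 0.01 ± 0.16. The SUGP1 response minus the SF3b response was -0.35 (±2 SE -0.67 to -0.04), edgeR adjusted p = 0.355, and 0.0524 with the block. None of 7 other diphthamide genes (EEF2 included) was called with PB in any genotype, with or without the block. An antisense transcript that overlaps DPH5 by 211 bases, AC093157.1, was called lower with PB in SUGP1 G603N (-1.21 ± 0.28, edgeR adjusted p = 0.0108) and in control (-1.42 ± 0.28, 0.00255), and with the block also in SUGP1 E554K (-0.82 ± 0.28, 0.0956, and 0.0241 with the block). Its mean was 4.64 CPM over all libraries; its part in the DPH5 values was not tested.

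TTI1, a subunit of the TTT co-chaperone that stabilises the kinases of the mTOR and ATM family, gave the lowest edgeR adjusted p of the 9 in the fit without the block. In SUGP1 E554K it stood at 36.6, 37.3 and 30.3 CPM with PB, against 49.3, 49.8 and 42.0 CPM with DMSO. The ranges did not overlap, and the 3 lines fell by 0.41 to 0.47 on the log2 scale, close to one another. The log2 fold change was -0.44 ± 0.11 (edgeR adjusted p = 0.0245, and 0.00343 with the block). Without the block, 3 of the 6 libraries were each needed for the call (DMSO replicates 1 and 2 and PB replicate 3), at an adjusted p of up to 0.146. With the block and without line 2 of SUGP1 E554K and 2 lines of other genotypes, it was 0.0558.

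TTI1 was not called with PB in SUGP1 G603N. There it stood at 31.9, 41.2 and 38.7 CPM with PB, against 38.0, 37.6 and 32.2 CPM with DMSO (0.05 ± 0.11, edgeR adjusted p = 0.878). Under DMSO the same 38.0, 37.6 and 32.2 CPM stood against 57.5, 54.4 and 53.9 CPM in control DMSO, 1.54-fold lower with no overlap. The log2 fold change was -0.62 ± 0.11, edgeR adjusted p = 0.0723 and DESeq2 adjusted p = 0.000210. In that contrast 0 of 9 genes were called by edgeR, where edgeR called 0.00635% of all genes. DESeq2 called 1 of the 9, and its share over all genes is not given here, so that call has no background to be read against. The control is 1 line, so a difference of genotype cannot be told apart from the level of that line. An unadjusted edgeR p under 0.05 was found for 1 of the 9, beside 5.23% of all genes. Without any 1 of the 6 libraries the edgeR adjusted p lay between 0.168 and 0.561.

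Under DMSO, TTI1 in SUGP1 E554K (47.0 ± 4.34 CPM) exceeded that in SUGP1 G603N (35.9 ± 3.23 CPM) by 0.39 ± 0.11 on the log2 scale, with non-overlapping values and an edgeR adjusted p of 0.996 (unadjusted 0.00210). PHF5A 2xTL at 52.2 ± 2.34 CPM and SF3B1 T1080I at 55.8 ± 3.15 CPM lay near control at 55.2 ± 1.96 CPM. With PB, control TTI1 was 45.5, 44.8 and 44.4 CPM, against 57.5, 54.4 and 53.9 CPM with DMSO (-0.30 ± 0.11, edgeR adjusted p = 0.171, and 0.0572 with the block). The difference between the responses of SUGP1 G603N and control was 0.35, edgeR adjusted p = 1.00.

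Among 9 genes of the TTT complex and its client kinases, ATM, the kinase of the DNA break response, fell with PB in SUGP1 E554K (-0.55 ± 0.13, edgeR adjusted p = 0.0118) and in SUGP1 G603N (-0.45 ± 0.13, 0.0488), and stood close to these in control (-0.44 ± 0.13, 0.0502, and 0.00766 with the block). ATR, its counterpart for stalled replication, fell in SUGP1 E554K (-0.61 ± 0.16, edgeR adjusted p = 0.0306). With the block ATR was also called lower in SUGP1 G603N (-0.43 ± 0.16, edgeR adjusted p = 0.157, and 0.0191 with the block) and in control (-0.44 ± 0.16, 0.161, and 0.0142 with the block), and MTOR in SUGP1 E554K (0.0311 with the block). TELO2 and TTI2, the partners of TTI1, were not called with PB in any genotype, with or without the block.

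ENOSF1, an enzyme of the enolase superfamily whose gene overlaps that of thymidylate synthase, had a spread of its own: the median coefficient of variation within groups was 44.0%, against 6.81% to 12.7% in the other 8 genes. In 3 lines, 1 each of 3 genotypes, it stood far above the other lines of the genotype with either treatment. SUGP1 E554K line 2 had 100.4 CPM with PB and 126 CPM with DMSO, PHF5A 2xTL line 1 had 94.3 CPM with PB and 106 CPM with DMSO, and SF3B1 T1080I line 3 had 112 CPM with PB and 115 CPM with DMSO. Over the other 12 lines and cultures no value exceeded 66.9 CPM.

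Genes beside ENOSF1 stood high in the same 3 lines. With PB and DMSO, TYMS, which overlaps ENOSF1 by 3255 bases on the opposite strand, had 155 and 155 CPM in SUGP1 E554K line 2, 140.3 and 151 CPM in PHF5A 2xTL line 1 and 149 and 157 CPM in SF3B1 T1080I line 3. It did not exceed 101 CPM in any other library. THOC1 and YES1, the nearest well-expressed genes on either side, did the same, with 112 to 162 CPM for THOC1 and 302 to 370 CPM for YES1 in these lines. The gene most like ENOSF1 over the 30 libraries, EPB41L3, is described with the other likenesses. Whether DNA copies of the region differ between lines was not tested.

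**Figure D4:**
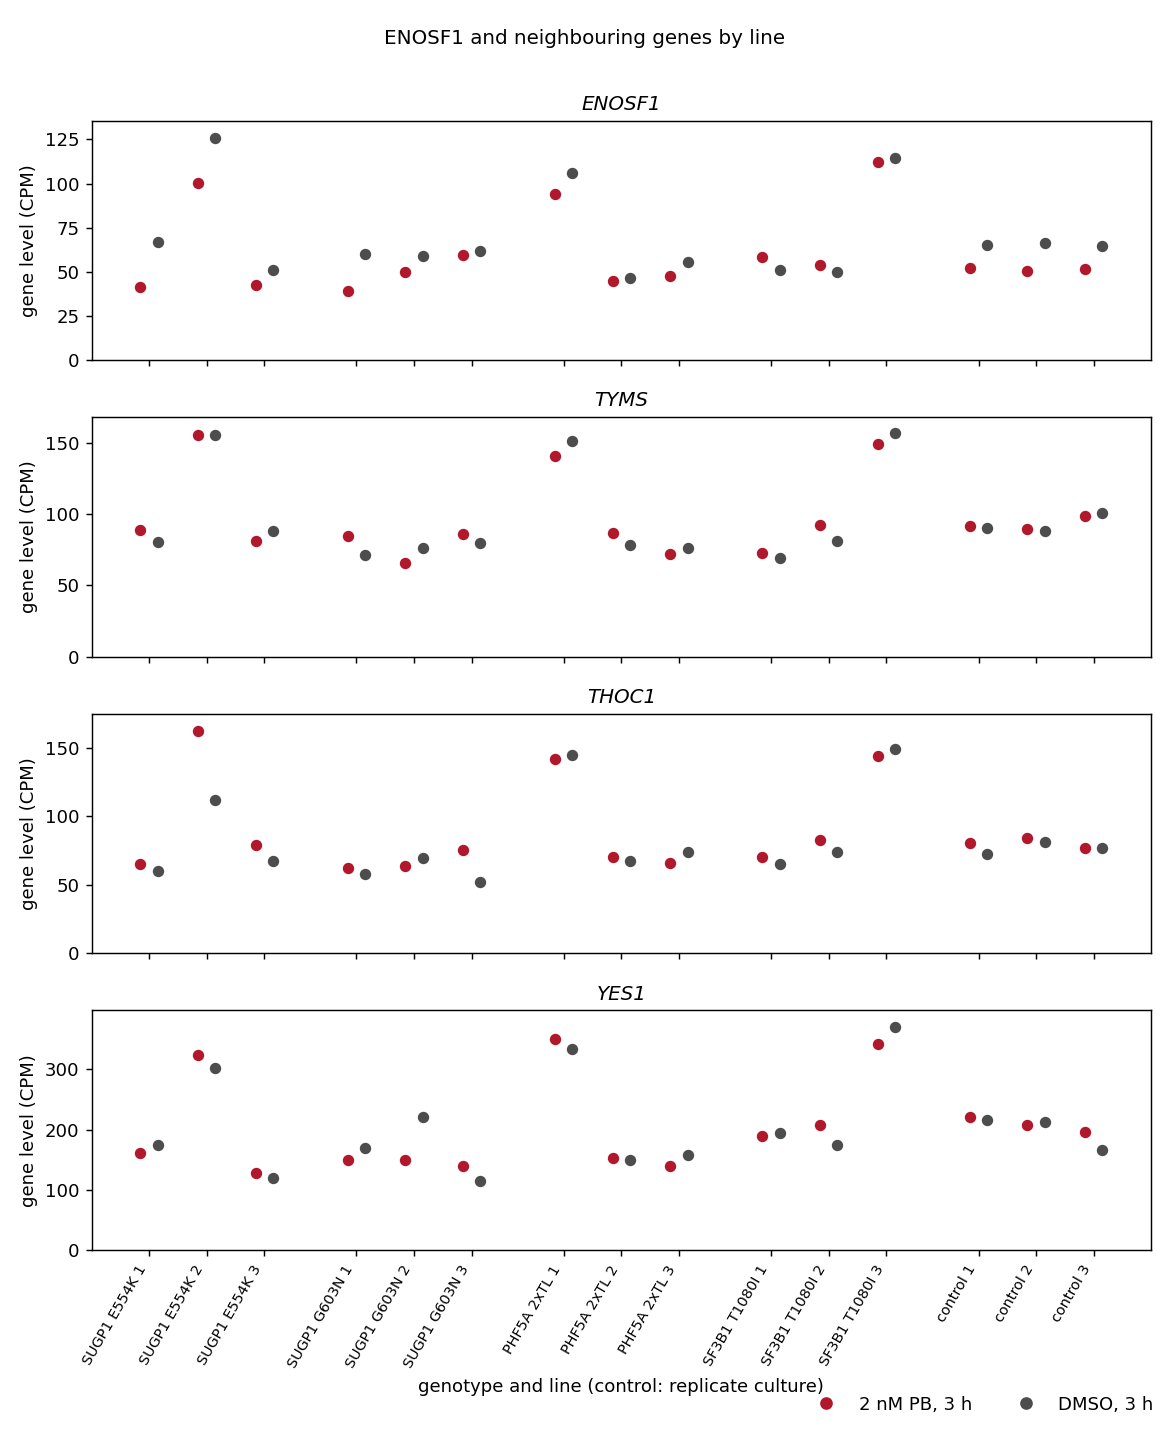
CPM (y axes, from 0) of ENOSF1 and of TYMS, THOC1 and YES1 in each line or control culture (x axis), PB (red) left of DMSO (grey). SUGP1 E554K line 2, PHF5A 2xTL line 1 and SF3B1 T1080I line 3 stand above all other lines in all 4 genes.

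Within lines, ENOSF1 was lower with PB in the SUGP1 mutants and control. It was also lower in all 3 PHF5A 2xTL lines, by 0.06 to 0.22 on the log2 scale (-0.16 ± 0.37, not called). In SF3B1 T1080I it was lower in 1 line and higher in 2 (0.06 ± 0.37, not called). SUGP1 E554K had 41.7, 100.4 and 42.6 CPM with PB, against 66.9, 126 and 51.1 CPM with DMSO (-0.40 ± 0.37, edgeR adjusted p = 0.675, and 0.00707 with the block). Control had 52.1, 50.7 and 51.6 CPM with PB, against 65.3, 66.6 and 64.5 CPM with DMSO, no overlap (-0.35 ± 0.37, edgeR adjusted p = 0.786, and 0.0327 with the block). With the block and without the 3 high lines the adjusted p was 0.0516 in SUGP1 E554K and 0.0621 in control. SUGP1 G603N had 39.3, 49.8 and 59.8 CPM with PB, against 60.4, 59.0 and 61.7 CPM with DMSO (-0.28 ± 0.37, edgeR adjusted p = 0.770, and 0.0712 with the block). TYMS, in contrast, had PB estimates near 0, such as 0.00 ± 0.31 in control.

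Under DMSO none of the 9 was called by edgeR in SUGP1 E554K (0% of all genes called), SUGP1 G603N, PHF5A 2xTL (0.00953%) or SF3B1 T1080I (0%) against control. Among these comparisons, those of TMEM14C in PHF5A 2xTL and TTI1 in SUGP1 G603N had an unadjusted p under 0.05, beside 4.48% and 5.23% of all genes there. By DESeq2 the TTI1 difference alone was called, with no DESeq2 share of all genes to set beside it. SUGP1 E554K against SUGP1 G603N gave no call by either tool (0% of all genes by edgeR), with TTI1 at an unadjusted p under 0.05, beside 4.34% of all genes. Responses to PB in each mutant minus that in control likewise gave no call among the 9 by edgeR or DESeq2. For SUGP1 E554K and SUGP1 G603N, 0% of all genes were called in these differences, for PHF5A 2xTL 0.26% and for SF3B1 T1080I 0.286%. Of the 9, 0, 1, 0 and 2 had an unadjusted p under 0.05 there, in that order, beside 2.04%, 2.77%, 6.21% and 6.69% of all genes. The 2 were PPOX (0.66, ±2 SE 0.17 to 1.15, edgeR adjusted p = 0.442) and DPH5 (0.50, ±2 SE 0.06 to 0.95, 0.653) in SF3B1 T1080I. Comparisons against control share its libraries, all from 1 line, and are not independent of each other.

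Of 18 other genes known for cryptic 3′ splice sites in SF3B1-mutant cells, 17 were tested. With PB, 2 were called lower in SUGP1 E554K, 2 in SUGP1 G603N and 1 in control, and none in PHF5A 2xTL or SF3B1 T1080I. Of all tested genes 4.32%, 4.08% and 4.3% were called in the first 3 genotypes, in that order, and 0.00318% in each of the last 2. With the block these were 5, 4 and 2 lower and 1 higher, DYNLL1 in SUGP1 E554K, beside 11.3%, 9.25% and 9.34% of all genes. ABCC5, an export pump for cyclic nucleotides, was called in both SUGP1 mutants and in control, with and without the block. It stood at 39.0 ± 8.38 CPM with PB in SUGP1 E554K, against 77.3 ± 17.5 CPM with DMSO (-0.98 ± 0.16, edgeR adjusted p = 0.000476). In SUGP1 G603N it had 39.9 ± 4.69 CPM with PB, against 76.3 ± 13.1 CPM with DMSO (-0.93 ± 0.16, 0.000855). Control had 32.3 ± 1.08 CPM with PB, against 68.8 ± 10.4 CPM with DMSO (-1.09 ± 0.16, 0.000127). The ABCC5 response of the SUGP1 mutants minus that of the SF3b mutants was -0.74 ± 0.16 (edgeR adjusted p = 0.0122).

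The other called genes of this list were GUSBP11, a pseudogene related to GUSB, in SUGP1 E554K (-0.99 ± 0.28, edgeR adjusted p = 0.0424) and KANSL3, a subunit of a histone acetyltransferase complex, in SUGP1 G603N (-0.40 ± 0.11, 0.0433). With the block GUSBP11 was also called lower in control (edgeR adjusted p = 0.0313) and KANSL3 in SUGP1 E554K (0.0375). GUSBP11 has near-identical copies, so its counts are uncertain. The medians of the 17 genes were -0.22 in SUGP1 E554K, -0.16 in SUGP1 G603N, -0.05 in PHF5A 2xTL, 0.01 in SF3B1 T1080I and -0.15 in control.

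The gene with the most similar log2 CPM to each member over the 30 libraries, among 11998 genes at a mean of at least 4 CPM, was found by Pearson correlation, as a description. Such values share libraries, lines and treatment. They were GNB4 for MAP3K7 (r = 0.934), MEPCE for DVL2 (0.924), EPB41L3 for ENOSF1 (0.922), the long non-coding RNA AC008735.2 for BRD9 (0.879), STAM2 for DPH5 (0.876), LINC01089 for PPOX (0.855), WASHC5 for TTI1 (0.837), FLII for COASY (0.816) and TRNP1 for TMEM14C (0.785). No member was the closest gene of another.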

How the data were processed

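RNA from 30 libraries of eHAP FNLS cells was sequenced as paired 150-base reads after poly(A) selection with a CORALL kit, per the labels' protocols. The build was hg38 and the tools named were STAR, UMI-tools and SAMtools 1.10, per the submitters' processing notes. The counting program, its annotation, its strand setting and its handling of multiply mapped reads are not given in the sources used. The authors deposited estimated counts per gene, not normalized, for 61487 genes, and 65.5% of the values above 0 were not whole.

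Counts were rounded to whole numbers (up where the decimal was 0.5), filtered with filterByExpr over the 10 groups (31495 genes), scaled by TMM and fitted in 1 edgeR 4.0.16 quasi-likelihood model (R 4.3.3) with a mean for each group, with Benjamini-Hochberg adjustment over all tested genes in each of 15 contrasts. DESeq2 1.42.0 was an alternative. Approximate standard errors were taken from each fold change and its F statistic. CPM uses the TMM-scaled library. The fit was tested on simulated data. The 9 genes, the other gene lists and the alternatives were chosen with earlier results of these data known. All 9 genes are named, with up to 4 called genes per list; of the 2 closest genes by correlation that the rule takes, the first is given. THOC1 and YES1 were named after their values were seen. Gene names came from the reference table of symbols, and positions, overlaps and sequences from GENCODE release 29.

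Replicate numbers pair PB with DMSO: mutant libraries of a number are the same line per the labels, and same-numbered deviations from group means correlated at 0.424 to 0.837 in mutants and 0.212 to 0.436 in control (11999 genes). Block values therefore stand beside the PB results of named genes whose call they change. The 3 libraries of a control group come from 1 line, but the fit estimates 1 spread per gene over all 10 groups. Without the block, p-values in control therefore rest largely on the spread between mutant clones, not on that between control cultures alone.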

Additional observations from a re-analysis of the deposited data

Results flagged for a closer look

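The BRD9 response to PB in the SUGP1 mutants was called different from that in the SF3b mutants by edgeR in the fit paired by line only. There the mean log2 response of the SUGP1 mutants minus that of the SF3b mutants was 0.39 (edgeR adjusted p = 0.0485), and BRD9 was higher with PB in 4 of the 6 SUGP1 lines and in 2 of the 6 SF3b lines. The edgeR adjusted p was 0.160 without the pairing, and 0.451 with it when the 3 lines high in ENOSF1 were left out, so that neither gave a call.

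In 3 further cases every line of a mutant moved the opposite way with PB from every control culture, while edgeR's test of the difference in response made no call. The TMEM14C response of SUGP1 E554K, up in 3 of 3 lines, minus that of control, down in 3 of 3 cultures, was 0.19 on the log2 scale (edgeR adjusted p = 1.00). The COASY response was down in 3 of 3 lines of PHF5A 2xTL and of SF3B1 T1080I and up in 3 of 3 control cultures. It differed from that of control by -0.34 for PHF5A 2xTL (edgeR adjusted p = 0.958, and 0.503 with the block) and by -0.22 for SF3B1 T1080I (edgeR adjusted p = 1.00). These 3 were picked out by their signs, and the pattern of signs itself was not tested.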

How the results depend on the processing

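Calls among the 9 genes rested on few settings. Alternatives were followed for single genes only in 23 results with an unadjusted p under 0.05 or a call with the block. Of their alternative values, 361 kept direction and side of the threshold, 20 passed it newly, 27 lost it and 1 reversed. Because these results were picked by their p-values, the counts do not show how stable direction was for the 9 genes in general. With the replicate block the number of the 9 called with PB was 3 in control (1 without), 4 in SUGP1 E554K (2 without) and 2 in SUGP1 G603N (0 without); it was 1 (BRD9) for SUGP1 against SF3b mutants (0 without), and 1 (TTI1) for SUGP1 G603N against control under DMSO, where lines and cultures share only a number (correlations -0.22 to 0.29). Control PB calls numbered 0 with RLE scaling, 0 with no filter, 0 with decimals of 0.5 rounded to even and 0 without the 3 lines high in ENOSF1, but 2 by DESeq2, 2 with control libraries alone and 2 with the block and without those lines. SUGP1 E554K calls numbered 1 with RLE, 1 with rounding to even, and 0 each with no filter, with its own libraries alone, and without the 3 lines, block or not. SUGP1 G603N had 2 with the block and without the 3 lines, and SUGP1 against SF3b mutants then had 1 (DPH5). TTI1 in SUGP1 G603N against control was called (1 gene) with RLE, by DESeq2 and with rounding to even. Leaving out 1 library at a time gave 0 to 0 calls in control, 0 to 2 in SUGP1 E554K and 0 to 1 in SUGP1 G603N. ENOSF1 in SUGP1 E554K then ranged between -0.92 and 0.062 on the log2 scale, reversing without DMSO replicate 2. The cause of these changes was not tested. Centred over libraries, the log2 scaled library size shifted by -0.07 to 0.05 with RLE against TMM, and by -0.05 to 0.06 with rounding to even. Rounding and the removal of lines were alternatives chosen after seeing the data. The fits with no filter tested more genes, and those with 1 library left out have fewer samples. PPOX, at 267 to 1138 counts a library, had the least depth.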
